A study of Mus musculus with 9 samples.

Results

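The genes described here encode the enzymes that build cholesterol and fatty acids from acetyl-CoA and the proteins that switch those enzymes on, in mouse bone marrow-derived macrophages given lipopolysaccharide (LPS), a bacterial cell wall component, with and without serum response factor (SRF). The set was a fixed list of 33 mouse gene symbols, matched through the Ensembl identifiers of the count files, and all 33 were among the 22524 identifiers counted. The list was chosen with earlier results of these data known. Its counts are therefore set beside those of all genes as description and not as a test of the set. By role, 18 encode steps of sterol synthesis, 9 encode steps of fatty acid synthesis, elongation or desaturation, 5 encode the SREBP transcription factors and the proteins that control them, and Stard4 encodes a cytosolic sterol carrier. All 33 passed the filter on low counts, which left 11560 genes to test.

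RNA was sequenced from 3 libraries of each of 3 groups. These were macrophages labelled SRF-KO and treated with LPS for 6 h, wild-type macrophages treated with LPS for 6 h, and wild-type macrophages left untreated. Both wild-type groups carry that genotype label and are called control in the sample titles, and whether they had alleles or treatments in common with the SRF-KO cells is not given in the sources used here. All were primary macrophages of C57BL/6 mice, grown from bone marrow for 7 days. The labels name neither the way Srf was removed nor the LPS dose, and they do not say whether the libraries of a group came from separate animals or cultures, so the p-values measure the spread between these libraries, which may be technical. No untreated SRF-KO library was analysed here, so a response to LPS within SRF-KO cells was not measured.

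Sterol regulatory element-binding proteins (SREBPs) are made as precursors in the membrane of the endoplasmic reticulum. When membrane sterol is low, the escort protein SCAP carries the precursor to the Golgi, where proteases release the active factor; when sterol is high, INSIG proteins hold SCAP back. SREBP-2, from Srebf2, acts mainly on sterol synthesis genes, and SREBP-1, from Srebf1, acts mainly on fatty acid synthesis genes, while oxysterols such as 25-hydroxycholesterol, made by the enzyme Ch25h, keep the precursors in place.

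Libraries held 16987011 to 24912173 counted reads in SRF-KO cells with LPS, 15321839 to 19009123 in wild-type cells with LPS and 15867737 to 17606538 in untreated wild-type cells. Levels are given as counts per 1000000 (CPM) of the effective library size, that is the total scaled by edgeR's TMM factor. The targeted gene Srf was at 1.53, 0.928 and 0.680 CPM in SRF-KO cells with LPS, against 59.4, 55.2 and 58.2 in wild-type cells with LPS and 39.1, 46.7 and 47.2 in untreated wild-type cells. Summed over the Y-linked genes Uty, Ddx3y, Kdm5d and Eif2s3y, the SRF-KO libraries held 0.0387 to 0.135 CPM, against 136.9 to 145.7 in wild-type libraries with LPS and 115.3 to 132.6 in untreated ones, so sex and genotype cannot be told apart here. Of the sterol genes, 2 lie on chromosome X, Nsdhl and Ebp. Summed over 10 macrophage markers, of which Lyz2 was the most abundant in each group, the libraries held 24661 to 24917 CPM in SRF-KO cells with LPS, 24054 to 24540 in wild-type cells with LPS and 17197 to 17807 in untreated cells. Of 7 T and NK cell markers 0 passed the filter, and their sum was at most 0.574 CPM in any library; the sum of 6 B cell markers was at most 2.22 CPM. The sum of 12 adipocyte, stromal and endothelial markers was 29.8 to 32.6 CPM in SRF-KO cells with LPS, 22.9 to 29.6 in wild-type cells with LPS and 9.61 to 10.6 in untreated cells; Adipoq, Plin1, Lep and Col1a1 were among those with a count of 0 in all 9 libraries, and single markers that moved are given with the other marker lists. In bulk RNA, fewer cells of a type and less RNA per cell cannot be told apart.

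SREBPs bind sterol regulatory elements near gene starts, usually beside CCAAT boxes bound by NF-Y and GC boxes bound by Sp factors. RefSeq promoter windows on GRCm38.p6, from 250 bases before to 50 bases after a start, were found for 26 of the 33 genes. The windows shown are those of Hmgcs1, which held the sterol element, Mvk, which held the most CCAAT boxes, the regulator Insig1 and the fatty acid synthase gene Fasn. Capitals mark the sterol element core TCACNCCAC and CCAAT, which reads ATTGG when it lies on the other strand; the pair of adjoining boxes in Fasn overlap.
Hmgcs1 (chr13:119690101-119690400, plus strand): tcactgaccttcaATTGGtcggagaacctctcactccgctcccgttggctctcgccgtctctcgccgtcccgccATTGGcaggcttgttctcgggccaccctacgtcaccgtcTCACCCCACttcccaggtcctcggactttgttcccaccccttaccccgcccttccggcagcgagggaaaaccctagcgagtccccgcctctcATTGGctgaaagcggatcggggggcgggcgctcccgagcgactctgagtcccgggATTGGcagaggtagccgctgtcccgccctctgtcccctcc
Mvk (chr5:114444019-114444318, plus strand): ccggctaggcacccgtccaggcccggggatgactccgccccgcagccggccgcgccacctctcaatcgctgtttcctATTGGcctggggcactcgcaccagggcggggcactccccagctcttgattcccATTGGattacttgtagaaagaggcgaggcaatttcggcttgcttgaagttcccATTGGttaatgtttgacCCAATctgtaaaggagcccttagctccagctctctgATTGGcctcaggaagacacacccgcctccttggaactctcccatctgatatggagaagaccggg
Insig1 (chr5:28071162-28071461, plus strand): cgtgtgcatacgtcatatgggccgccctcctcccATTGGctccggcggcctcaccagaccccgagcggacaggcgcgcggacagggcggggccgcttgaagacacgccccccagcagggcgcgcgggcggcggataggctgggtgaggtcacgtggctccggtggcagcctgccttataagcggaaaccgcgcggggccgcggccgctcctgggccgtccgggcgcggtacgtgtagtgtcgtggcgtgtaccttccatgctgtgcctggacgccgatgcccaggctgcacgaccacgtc
Fasn (chr11:120824498-120824797, minus strand): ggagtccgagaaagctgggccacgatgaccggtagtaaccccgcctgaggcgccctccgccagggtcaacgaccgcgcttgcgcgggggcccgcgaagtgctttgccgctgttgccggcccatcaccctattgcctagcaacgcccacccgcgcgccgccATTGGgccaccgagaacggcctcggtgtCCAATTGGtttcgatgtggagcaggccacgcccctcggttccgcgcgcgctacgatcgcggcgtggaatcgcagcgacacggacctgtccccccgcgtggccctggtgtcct

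With both strands searched, CCAAT was found in 21 of the 26 genes (80.8%), against 41.1% of all genes with a window and 43.1% of those that passed the filter on low counts. The GC box GGGCGG was also found in 21 of 26 (80.8%), against 38.2% of all genes and 68.8% of those that passed the filter. TCACNCCAC was found in 1 of 26, Hmgcs1 (3.85%), against 1.44% of all genes and 1.38% of those that passed. The Mvk window held 5 CCAAT boxes, the Hmgcs1 window 4, the Fasn window 3 and the Insig1 window 1. A match shows that the letters are present in the window and not that a factor binds them.

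The sterol part of the pathway stood at a different level in each group. Its transcripts were most abundant in SRF-KO cells with LPS, intermediate in untreated wild-type cells and least abundant in wild-type cells with LPS. Summed over the 18 sterol genes, the libraries held 1037, 1051 and 1021 CPM in SRF-KO cells with LPS, 252.9, 264.2 and 249.7 CPM in wild-type cells with LPS, and 487.1, 476.3 and 458.8 CPM in untreated wild-type cells. No library of one group reached the range of another. The 9 fatty acid genes summed to 350.3, 337.5 and 339.8 CPM in SRF-KO cells with LPS, 95.4, 94.5 and 93.2 in wild-type cells with LPS, and 349.2, 349.8 and 353.4 in untreated wild-type cells. Here the SRF-KO and untreated ranges overlapped, and both stood above every wild-type library with LPS. The overlap does not mean that each gene was at its untreated level, since abundant genes moved in opposite directions. Mean Scd2 was 139.6 CPM in SRF-KO cells with LPS and 66.0 in untreated cells, and mean Fads1 was 32.5 and 110.5. The 5 regulators summed to 527.5, 502.6 and 529.5 CPM in SRF-KO cells with LPS, 310.4, 305.3 and 308.7 in wild-type cells with LPS, and 355.8, 387.5 and 388.4 in untreated cells, with no overlap between groups.

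**Figure D1:**
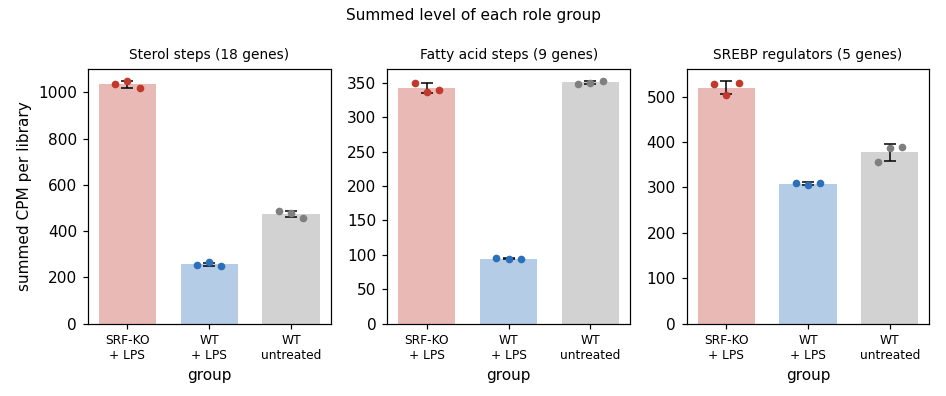
Summed CPM of the 18 sterol, 9 fatty acid and 5 regulator genes in SRF-KO cells with LPS, wild-type cells with LPS and untreated wild-type cells. The fatty acid sums do not show that Scd2 was higher and Fads1 lower in SRF-KO cells with LPS than in untreated cells. Points are the 3 libraries of each group, bars their mean and error bars 1 SD; the sterol mean is 1036 CPM in SRF-KO cells with LPS, 255.6 in wild-type cells with LPS and 474.1 in untreated cells, while the fatty acid mean is 342.5 in SRF-KO cells with LPS, 94.4 in wild-type cells with LPS and 350.8 in untreated cells.

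The first comparison asked what LPS did in wild-type cells. Of the 33 genes, 27 fell, 3 rose and 3 did not pass edgeR's quasi-likelihood test at a Benjamini-Hochberg adjusted p of 0.05, against 40.8% of the 11560 genes tested that fell and 40.8% that rose. The median log2 fold change was -0.76 over the 33 genes and -0.02 over all genes tested. At least 2-fold lower were 14 of the 33, against 17.4% of all genes, and 1 was at least 2-fold higher, against 15.6%. The 27 and the 14 include Scd1, which passed the filter on low counts only through its untreated libraries. Its calls as lower than untreated cells were favoured by that filter. Calls in either direction were frequent in the whole table, at 81.7%, and the 30 called here have to be read against that. Groups did not overlap for 29 of the 33, against 82.1% of all genes.

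The second comparison set SRF-KO cells with LPS against wild-type cells with LPS, groups that differ in genotype label and in Y-linked transcripts. Here 29 of the 33 genes were higher in SRF-KO cells, 2 were lower and 2 did not pass, against 39.1% of all genes higher and 37.9% lower, or 77.0% in either direction. The median log2 fold change was 1.60, against 0.01 over all genes. At least 2-fold higher were 20 of the 33, against 13.9% of all genes, and 0 were at least 2-fold lower, against 11.2%. The 2 groups did not overlap for 31 of the 33, against 78.0% of all genes.

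The third comparison set SRF-KO cells with LPS against untreated wild-type cells, which differ in both genotype and treatment. Of the 33 genes, 24 were higher and 9 lower in SRF-KO cells with LPS, against 39.4% higher and 40.1% lower of all genes, or 79.5% in either direction. At least 2-fold higher were 14, against 13.4% of all genes, and 3 were at least 2-fold lower, against 13.0%. The 9 and the 3 include Scd1, with the limit set by the filter given above. The median was 0.66, against -0.01 over all genes. The 3 comparisons share libraries in pairs, so their values are set side by side below and are not independent of each other. With library totals in place of TMM factors, the median over all genes moved by -0.55 for LPS in wild-type cells, by 0.36 between the SRF-KO and wild-type groups with LPS and by -0.19 for SRF-KO with LPS against untreated cells. Under totals the 33 genes gave 1 higher and 30 lower, 31 higher and 0 lower, and 20 higher and 9 lower in these comparisons. The medians of the role groups relative to the median of all genes moved by less than 0.01. A change of scaling shifts all genes nearly alike, so these relative medians could hardly move and do not test the scaling.

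**Figure D2:**
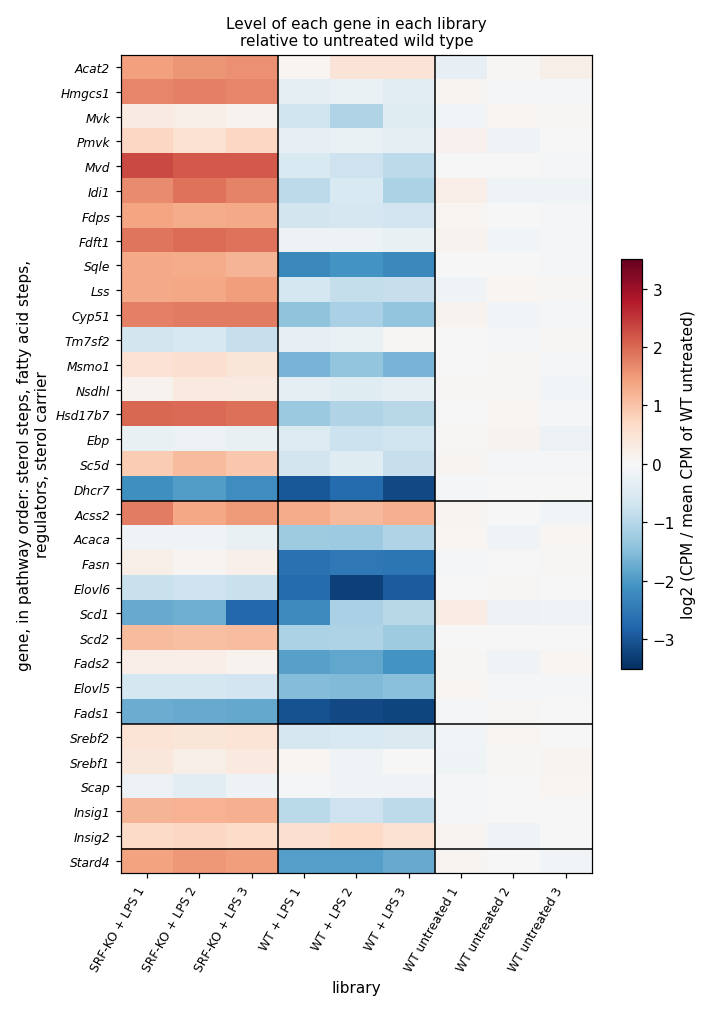
Log2 of each library's CPM over the mean CPM of the 3 untreated wild-type libraries, for each of the 33 genes in pathway order; red is higher and blue lower than untreated. The SRF-KO columns are red over most sterol rows and blue for Dhcr7 and Fads1, and the columns of wild-type cells with LPS are blue in most rows, with Acss2 and Insig2 red in both.

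Within sterol synthesis, LPS in wild-type cells lowered 16 of 18 genes and raised Acat2, with Tm7sf2 not passing the test, at a median log2 fold change of -0.67. In SRF-KO cells with LPS, 17 of the 18 were higher than in wild-type cells with LPS (median 2.00) and Tm7sf2 was lower. Against untreated wild-type cells, 15 of the 18 were higher (median 1.30), and Dhcr7, Tm7sf2 and Ebp were lower. Over all genes tested, 40.8% were lower with LPS in wild-type cells. The shares higher in SRF-KO cells with LPS were 39.1% against wild-type cells with LPS and 39.4% against untreated cells.

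The path starts with Acat2 (ENSMUSG00000023832, chr17:12942890-12960747, minus strand), the cytosolic thiolase that joins acetyl-CoA units. It was at 15.6, 16.7 and 17.4 CPM in SRF-KO cells with LPS, 5.96, 7.81 and 7.82 in wild-type cells with LPS and 4.73, 5.89 and 6.56 in untreated wild-type cells. The SRF-KO libraries were above all others, and the wild-type groups overlapped. Acat2 was 2.28-fold higher in SRF-KO cells than in wild-type cells with LPS (log2 fold change 1.19, SE 0.109, edgeR adjusted p = 2.10e-12). Its rise with LPS in wild-type cells was small (log2 fold change 0.35, edgeR adjusted p = 0.0159); it turned to -0.20 with library totals and did not pass without wild-type LPS replicate 2 (adjusted p = 0.0759) or 3 (0.0923) or untreated replicate 1 (0.13).

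Hmgcs1 (ENSMUSG00000093930, chr13:119690379-119708260, plus strand), whose promoter held the sterol element core, encodes the synthase that makes HMG-CoA. SRF-KO libraries with LPS held 164, 170.4 and 165 CPM, wild-type libraries with LPS 39.6, 42.7 and 38.3 CPM and untreated libraries 54.3, 48.7 and 48.5 CPM. The 3 groups did not overlap, and the SRF-KO libraries stood far above the rest. Between SRF-KO and untreated cells the log2 fold change was 1.72 (SE 0.0478, edgeR adjusted p = 1.02e-28), and between SRF-KO and wild-type cells with LPS it was 2.05. LPS in wild-type cells lowered Hmgcs1 by a smaller amount (log2 fold change -0.33, edgeR adjusted p = 2.61e-06).

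Of the 6 enzymes between HMG-CoA and squalene on the list, Mvk and Pmvk, kinases of mevalonate, and Mvd, Idi1, Fdps and Fdft1, which make and join the isoprenoid units, all fell with LPS in wild-type cells, by log2 fold changes of -0.84 (Idi1) to -0.22 (Fdft1). The fall did not pass for Pmvk without untreated replicate 1 (adjusted p = 0.0974), nor for Fdft1 without wild-type LPS replicate 3 (0.0675) or untreated replicate 1 (0.109). All 6 were higher in SRF-KO than in wild-type cells with LPS, from 0.90 for Mvk to 2.92 for Mvd. The mean of Mvd was 46.2 ± 2.87 CPM in SRF-KO cells with LPS, 6.15 ± 0.823 in wild-type cells with LPS and 10.1 ± 0.171 in untreated cells (SD, n = 3 each). Against untreated cells Mvd had the largest log2 fold change of the 33 genes, 2.20, and Mvk the smallest of these 6, 0.21 (edgeR adjusted p = 0.0309), a call that was lost with DESeq2 (adjusted p = 0.0675), with library totals (0.854) and without SRF-KO replicate 1 (0.125) or untreated replicate 1 (0.117). Exons of Fdft1 share 18.3% of their bases with Ctsb on the opposite strand, a very abundant macrophage transcript, and 26.7% of the exon bases of Fdps are shared with Gm43738 on the same strand. The library kit was stranded, but the strand setting of the counting is not given in the sources used here, so the levels of these 2 genes are uncertain.

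Squalene epoxidase, Sqle (ENSMUSG00000022351, chr15:59315077-59331192, plus strand), is the first oxygen-requiring step and a point of control of the pathway. It was at 129.8, 127 and 119.7 CPM in SRF-KO cells with LPS, against 10.8, 12.3 and 10.9 in wild-type cells with LPS and 53.0, 52.7 and 50.3 in untreated cells. Untreated libraries lay between the other groups, with no overlap. The difference between SRF-KO and wild-type cells with LPS was 11.1-fold (log2 fold change 3.47, SE 0.0642, edgeR adjusted p = 2.38e-34), the largest of the 33 genes in that comparison. LPS lowered Sqle 4.58-fold in wild-type cells (edgeR adjusted p = 1.03e-26), and SRF-KO cells with LPS were 2.41-fold above untreated cells. Lss, lanosterol synthase, which closes the rings, was at 51.7 ± 2.78 CPM in SRF-KO cells with LPS, 11.8 ± 0.906 in wild-type cells with LPS and 19.8 ± 1.33 in untreated cells (SD, n = 3 each).

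After lanosterol, Cyp51 (ENSMUSG00000001467, chr5:4081145-4104746, minus strand) removes a methyl group. The SRF-KO libraries held 126, 129.6 and 131 CPM, wild-type cells with LPS 13.9, 17.0 and 14.2 and untreated cells 40.3, 34.5 and 36.2. As for Sqle, the order was SRF-KO with LPS, untreated, then wild type with LPS, without overlap. Cyp51 was 8.55-fold higher in SRF-KO than in wild-type cells with LPS (log2 fold change 3.10, SE 0.0659, edgeR adjusted p = 2.19e-32) and 3.48-fold higher than in untreated cells.

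Hsd17b7 (ENSMUSG00000026675, chr1:169949535-169969241, minus strand), a ketoreductase of the same stretch, was at 66.4, 64.1 and 62.3 CPM in SRF-KO cells with LPS, 6.69, 7.88 and 8.40 in wild-type cells with LPS and 16.1, 17.2 and 15.8 in untreated cells. Groups were again apart in the same order. The log2 fold change was 3.06 against wild-type cells with LPS (edgeR adjusted p = 4.73e-30) and 1.97 against untreated cells (edgeR adjusted p = 5.44e-27).

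Msmo1 (ENSMUSG00000031604, chr8:64718139-64733792, minus strand), a methylsterol oxidase, had a higher untreated level than Cyp51 or Hsd17b7. It had 121, 125 and 113 CPM in SRF-KO cells with LPS, 27.6, 32.8 and 27.6 in wild-type cells with LPS and 85.2, 88.0 and 82.0 in untreated cells. Untreated cells were closer to the SRF-KO level than for Cyp51 or Hsd17b7. They were closer still for Mvk and Nsdhl (log2 fold changes of 0.21 and 0.26 against untreated cells). LPS lowered Msmo1 2.90-fold in wild-type cells (edgeR adjusted p = 8.10e-24), and SRF-KO cells with LPS were 4.08-fold above wild-type cells with LPS and 1.41-fold above untreated cells.

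Tm7sf2 (ENSMUSG00000024799, chr19:6062821-6068373, minus strand), a sterol reductase whose step the lamin B receptor Lbr can also carry out, went the other way. Its libraries held 8.83, 9.36 and 7.82 CPM in SRF-KO cells with LPS, 11.4, 11.7 and 14.2 in wild-type cells with LPS and 13.8, 13.5 and 14.1 in untreated cells. The SRF-KO libraries were the lowest of the 9. LPS in wild-type cells gave a log2 fold change of -0.14 that did not pass (95% interval -0.34 to 0.05), but did without wild-type LPS replicate 3 (-0.26, adjusted p = 0.031) and with library totals (-0.69). The log2 fold change was -0.51 against wild-type cells with LPS (edgeR adjusted p = 2.43e-05; -0.16 and adjusted p = 0.148 with library totals) and -0.66 against untreated cells (edgeR adjusted p = 6.88e-08). Exons of Tm7sf2 share 12.1% of their bases with Vps51 on the same strand, so its count is uncertain. Lbr itself was at 21.1, 19.8 and 19.8 CPM in SRF-KO cells with LPS, 5.96, 7.05 and 7.18 in wild-type cells with LPS and 19.6, 19.1 and 17.5 in untreated cells, a log2 fold change of 1.58 between the groups with LPS (edgeR adjusted p = 1.15e-17).

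Of the sterol genes higher in SRF-KO than in wild-type cells with LPS, Ebp and Nsdhl, both on chromosome X, had the smallest fold changes. Ebp (ENSMUSG00000031168, chrX:8185329-8193512, minus strand), the sterol isomerase, was at 27.9, 28.7 and 27.9 CPM in SRF-KO cells with LPS, 24.0, 19.8 and 20.4 in wild-type cells with LPS and 34.4, 36.6 and 28.9 in untreated cells. SRF-KO cells lay between the wild-type groups, 1.33-fold above those with LPS (edgeR adjusted p = 2.10e-05) and 1.18-fold below untreated cells (edgeR adjusted p = 0.00211). Nsdhl, a sterol dehydrogenase, differed by a log2 fold change of 0.63 between SRF-KO and wild-type cells with LPS. Sc5d, a desaturase, was at 40.9 ± 3.16 CPM in SRF-KO cells with LPS, 13.5 ± 1.78 in wild-type cells with LPS and 20.8 ± 1.38 in untreated cells (SD, n = 3 each).

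Dhcr7 (ENSMUSG00000058454, chr7:143823145-143848410, plus strand), the reductase of the last step, was the sterol gene farthest below its untreated level in both LPS groups. It was at 5.41, 6.15 and 5.21 CPM in SRF-KO cells with LPS, 3.06, 3.66 and 2.65 in wild-type cells with LPS and 23.2, 24.1 and 23.9 in untreated cells. All 6 LPS libraries were far below the untreated ones, and within LPS the SRF-KO libraries were the higher. LPS lowered it 7.60-fold in wild-type cells (log2 fold change -2.93, SE 0.115, edgeR adjusted p = 8.03e-24). SRF-KO cells were 1.81-fold above wild-type cells with LPS (edgeR adjusted p = 2.23e-06) and 4.21-fold below untreated cells (edgeR adjusted p = 3.89e-22). The sum of reads behind Dhcr7 was 371 in SRF-KO libraries, 132 in wild-type libraries with LPS and 1433 in untreated libraries.

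The sterol carrier gene Stard4, on chromosome 18, had the group order of most early and middle sterol steps. It was at 81.2, 86.8 and 83.6 CPM in SRF-KO cells with LPS, 8.05, 8.02 and 8.92 in wild-type cells with LPS and 32.6, 30.3 and 28.3 in untreated cells. The groups were apart in the order SRF-KO with LPS, untreated, wild type with LPS. Between the LPS groups the log2 fold change was 3.33 (SE 0.0732, edgeR adjusted p = 6.14e-32), and LPS in wild-type cells gave -1.87 (edgeR adjusted p = 6.05e-22).

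**Figure D3:**
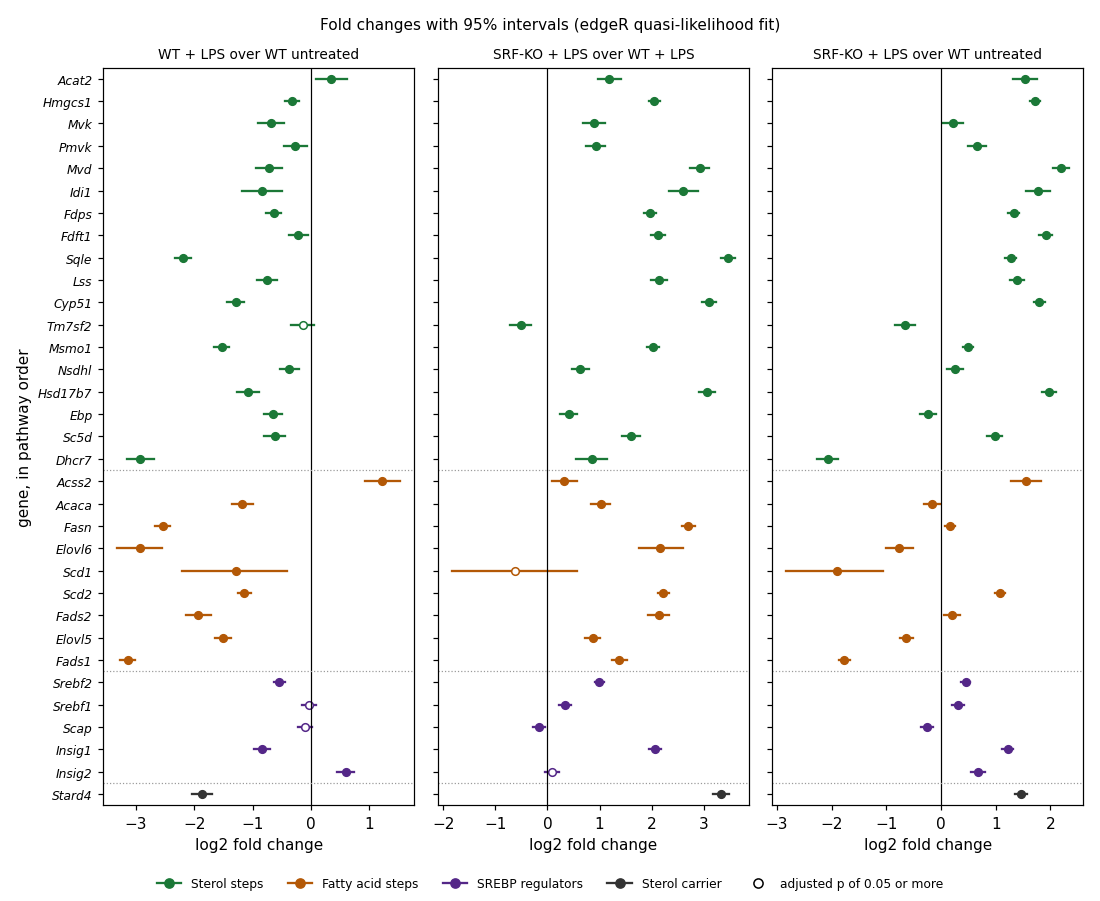
Log2 fold changes of the 33 genes with 95% intervals in the 3 comparisons, from top to bottom in pathway order and coloured by role; open circles did not pass an adjusted p of 0.05. Most sterol points lie right of 0 in the 2 panels with SRF-KO cells. In SRF-KO cells with LPS over untreated cells the fatty acid points spread on both sides, from -1.91 for Scd1 to 1.55 for Acss2. Scd1 passed the filter on low counts only through its untreated libraries.

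Among the fatty acid genes, LPS in wild-type cells lowered 8 of 9 and raised Acss2, at a median log2 fold change of -1.51. The 8 include Scd1, which passed the filter on low counts only through its untreated libraries, so its lower calls against untreated cells were favoured. SRF-KO cells with LPS were higher than wild-type cells with LPS for 8 of 9 (median 1.38), and Scd1 did not pass. Against untreated cells the list split into 4 higher and 5 lower (median -0.16). Higher were Acss2, Scd2, Fads2 and Fasn, and lower were Fads1, Elovl5, Elovl6, Acaca and Scd1. Of all genes tested, 40.8% were lower with LPS in wild-type cells and 39.1% higher in SRF-KO than in wild-type cells with LPS. Against untreated cells, 39.4% of all genes were higher and 40.1% lower in SRF-KO cells with LPS.

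Acss2 (ENSMUSG00000027605, chr2:155517948-155585724, plus strand), which makes acetyl-CoA from acetate, was the fatty acid gene raised by LPS. It was at 10.3, 7.62 and 8.39 CPM in SRF-KO cells with LPS, 7.33, 6.57 and 7.05 in wild-type cells with LPS and 3.18, 2.97 and 2.77 in untreated cells. Both LPS groups were above the untreated one and the SRF-KO range began just above the wild-type range. LPS raised it 2.33-fold in wild-type cells (edgeR adjusted p = 2.44e-09). The difference between SRF-KO and wild-type cells with LPS (log2 fold change 0.33, edgeR adjusted p = 0.0155) did not pass with DESeq2 (adjusted p = 0.0536), without SRF-KO replicate 1 (0.175) or without wild-type LPS replicate 2 (0.0656). Acaca, acetyl-CoA carboxylase, which commits carbon to the pathway, was at 20.9 ± 1.09 CPM in SRF-KO cells with LPS, 10.3 ± 0.923 in wild-type cells with LPS and 23.4 ± 1.80 in untreated cells (SD, n = 3 each). SRF-KO and untreated libraries overlapped for Acaca, and that call (log2 fold change -0.16, edgeR adjusted p = 0.0471) was lost with the replicate block (0.0527), DESeq2 (0.118), relative log expression factors (0.0561) and 5 of the 9 fits without a library, with adjusted p from 0.0523 to 0.177.

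Fasn (ENSMUSG00000025153, chr11:120805846-120824547, minus strand), fatty acid synthase, builds palmitate from malonyl-CoA. The libraries held 89.3, 83.3 and 88.3 CPM in SRF-KO cells with LPS, 12.6, 13.6 and 13.6 in wild-type cells with LPS and 75.0, 77.7 and 80.3 in untreated cells. SRF-KO and untreated cells were close, and wild-type cells with LPS were far below both. The difference between SRF-KO and wild-type cells with LPS was 6.52-fold (log2 fold change 2.71, SE 0.0635, edgeR adjusted p = 5.15e-31), and the drop with LPS in wild-type cells was 5.83-fold (edgeR adjusted p = 4.26e-30). Against untreated cells the log2 fold change was 0.16 (edgeR adjusted p = 0.00178), and it turned to -0.03 (adjusted p = 0.533) with library totals.

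Of the desaturases that make monounsaturated fatty acids, Scd2 (ENSMUSG00000025203, chr19:44293674-44306864, plus strand) was the abundant form. It was at 141, 138 and 139.5 CPM in SRF-KO cells with LPS, 30.8, 31.1 and 27.7 in wild-type cells with LPS and 65.9, 66.3 and 65.6 in untreated cells. Groups were apart in the order seen for Sqle and Cyp51. Scd2 was 4.69-fold higher in SRF-KO than in wild-type cells with LPS (log2 fold change 2.23, SE 0.0516, edgeR adjusted p = 3.32e-31) and 2.12-fold higher than in untreated cells (edgeR adjusted p = 3.22e-23). Its paralog Scd1 was below 1 CPM in all 9 libraries, with 13 reads in all in SRF-KO cells with LPS, 13 in wild-type cells with LPS and 46 in untreated cells, and between the LPS groups it did not pass the test (95% interval of the log2 fold change -1.83 to 0.57). How reads that match both paralogs were counted is not given in the sources used here.

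Elovl6 (ENSMUSG00000041220, chr3:129532355-129638495, plus strand), which lengthens saturated chains, was at 4.19, 4.41 and 4.19 CPM in SRF-KO cells with LPS, 1.13, 0.760 and 0.970 in wild-type cells with LPS and 7.14, 7.42 and 7.20 in untreated cells. SRF-KO cells lay between the wild-type groups. The log2 fold change was 2.17 against wild-type cells with LPS (SE 0.207, edgeR adjusted p = 4.88e-12) and -0.76 against untreated cells (edgeR adjusted p = 5.51e-07), with 40 reads in all behind the wild-type LPS value.

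The remaining 3 genes act in order on polyunsaturated chains. Fads2 (ENSMUSG00000024665, chr19:10062765-10101746, minus strand), the first desaturase, was at 21.8, 22.0 and 20.4 CPM in SRF-KO cells with LPS, 4.99, 5.32 and 4.40 in wild-type cells with LPS and 19.3, 17.2 and 19.5 in untreated cells. The untreated and SRF-KO levels were near each other and both above wild type with LPS. Between the LPS groups Fads2 differed 4.39-fold (edgeR adjusted p = 7.55e-21). Against untreated cells the log2 fold change of 0.20 (edgeR adjusted p = 0.0123) did not pass without SRF-KO replicate 2 (0.0515), without untreated replicate 2 (0.111) or with library totals (0.92).

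Elovl5 (ENSMUSG00000032349, chr9:77917364-77984519, plus strand), the elongase that follows, was at 28.6, 28.3 and 27.1 CPM in SRF-KO cells with LPS, 15.2, 14.9 and 15.8 in wild-type cells with LPS and 45.8, 42.5 and 42.3 in untreated cells. Groups were apart, with SRF-KO cells in the middle. It was 1.83-fold above wild-type cells with LPS (edgeR adjusted p = 1.20e-13) and 1.55-fold below untreated cells (edgeR adjusted p = 1.32e-12).

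Fads1 (ENSMUSG00000010663, chr19:10182888-10196877, plus strand), the next desaturase, had 32.98, 32.3 and 32.1 CPM in SRF-KO cells with LPS, 13.3, 12.3 and 12.0 in wild-type cells with LPS and 107, 114 and 111 in untreated cells. Like Dhcr7, it was low in all 6 LPS libraries, and the SRF-KO ones were the higher of these. The fall with LPS in wild-type cells, 8.86-fold (log2 fold change -3.15, SE 0.0621, edgeR adjusted p = 9.79e-34), was the largest of the 33 genes. SRF-KO cells were 2.60-fold above wild-type cells with LPS (edgeR adjusted p = 6.54e-20) and 3.40-fold below untreated cells (edgeR adjusted p = 1.06e-28).

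Of the 5 regulators, LPS in wild-type cells lowered Srebf2 and Insig1 and raised Insig2, while Srebf1 and Scap did not pass. Between SRF-KO and wild-type cells with LPS, Srebf2, Srebf1 and Insig1 were higher, Scap was lower and Insig2 did not pass. SRF-KO cells with LPS were above untreated cells for Srebf2, Srebf1, Insig1 and Insig2 and below them for Scap. Over all genes tested, 81.7%, 77.0% and 79.5% were called in either direction in these comparisons. Calls among 5 genes have to be read against that.

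Srebf2 (ENSMUSG00000022463, chr15:82147181-82205379, plus strand), the SREBP-2 gene, was at 260.4, 249.7 and 262 CPM in SRF-KO cells with LPS, 126, 129 and 132 in wild-type cells with LPS and 176, 196 and 191 in untreated cells. The groups did not overlap. It was 1.99-fold higher in SRF-KO than in wild-type cells with LPS (log2 fold change 0.99, SE 0.0422, edgeR adjusted p = 1.48e-22), and LPS in wild-type cells gave a log2 fold change of -0.54 (edgeR adjusted p = 2.55e-14).

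Srebf1 (ENSMUSG00000020538, chr11:60199089-60222581, minus strand), the SREBP-1 gene, had 105, 92.7 and 103 CPM in SRF-KO cells with LPS, 85.1, 72.4 and 79.5 in wild-type cells with LPS and 72.9, 83.7 and 85.6 in untreated cells. The wild-type groups overlapped, and the SRF-KO libraries began above them. With LPS in wild-type cells its log2 fold change was -0.03 (95% interval -0.15 to 0.09), and it turned to 0.03 without wild-type LPS replicate 2 and 0.01 without untreated replicate 3; it passed only with library totals (-0.58). The difference between SRF-KO and wild-type cells with LPS was 1.27-fold (edgeR adjusted p = 1.60e-06). These gene counts do not separate the transcripts for SREBP-1a and SREBP-1c.

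Scap (ENSMUSG00000032485, chr9:110333288-110384950, plus strand), the escort protein gene, was at 43.7, 38.6 and 44.1 CPM in SRF-KO cells with LPS, 48.5, 46.0 and 46.5 in wild-type cells with LPS and 47.7, 50.8 and 52.4 in untreated cells. The wild-type groups overlapped and the SRF-KO libraries were lowest. Between the wild-type groups the log2 fold change was -0.10 and did not pass, except without untreated replicate 1 (-0.14, adjusted p = 0.0385) and with library totals (-0.65). Against wild-type cells with LPS the log2 fold change was -0.16 (edgeR adjusted p = 0.013), but 0.19 (adjusted p = 0.00313) with library totals, and it did not pass without SRF-KO replicate 2 (0.139) or wild-type LPS replicate 1 (0.0549).

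Insig1 (ENSMUSG00000045294, chr5:28071363-28078662, plus strand), itself a known SREBP target, had the group order of most sterol enzymes. Its libraries held 83.5, 85.7 and 87.3 CPM in SRF-KO cells with LPS, 19.2, 22.4 and 19.7 in wild-type cells with LPS and 35.6, 37.3 and 37.3 in untreated cells. Groups were apart, highest in SRF-KO cells and lowest in wild-type cells with LPS. The log2 fold change was 2.06 between the LPS groups (SE 0.0600, edgeR adjusted p = 5.77e-28), -0.85 for LPS in wild-type cells and 1.22 for SRF-KO with LPS against untreated cells.

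Insig2 (ENSMUSG00000003721, chr1:121304353-121332589, minus strand), the second retention factor, had 34.4, 35.9 and 33.7 CPM in SRF-KO cells with LPS, 31.8, 35.04 and 31.3 in wild-type cells with LPS and 23.3, 19.7 and 22.1 in untreated cells. Both LPS groups were above the untreated one and overlapped each other. The log2 fold change between them was 0.08 (95% interval -0.05 to 0.22), and LPS in wild-type cells gave 0.59 (edgeR adjusted p = 1.09e-09), or 0.04 (adjusted p = 0.549) with library totals.

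**Figure D4:**
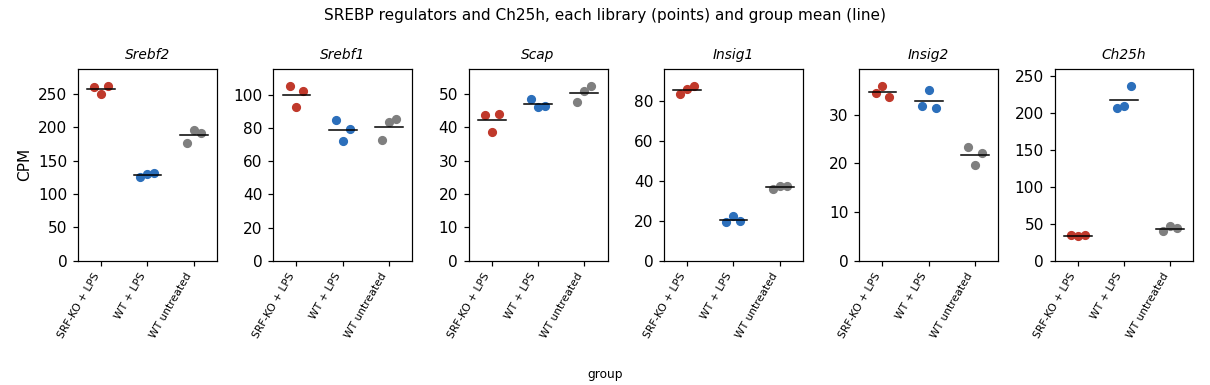
CPM of the 5 regulators and of Ch25h in each library of SRF-KO cells with LPS, wild-type cells with LPS and untreated wild-type cells, with the group mean as a line and a separate axis from 0 for each gene. Insig1 spans 83.5 to 87.3 CPM in SRF-KO cells with LPS and 19.2 to 22.4 in wild-type cells with LPS, while Ch25h is at 33.2 to 34.6 CPM in SRF-KO cells with LPS and 207.2 to 236.9 in wild-type cells with LPS.

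Levels of different genes were set side by side per kilobase of annotated exon, taken over all annotated transcripts of a gene. This length can exceed that of the transcript expressed, so ranks between genes are approximate. In SRF-KO cells with LPS the highest levels were those of Hmgcs1 (36.2 ± 0.777 CPM per kb), Srebf2 (35.8 ± 0.914), Cyp51 (29.2 ± 0.642) and Insig1 (27.7 ± 0.620). In wild-type cells with LPS the order began with Srebf2 (18.0 ± 0.416 CPM per kb), Srebf1 (14.0 ± 1.14), Insig2 (9.42 ± 0.585) and Ebp (9.26 ± 0.983). In untreated cells it began with Srebf2 (26.1 ± 1.42 CPM per kb), Fads1 (23.0 ± 0.641), Ebp (14.4 ± 1.71) and Srebf1 (14.3 ± 1.22). Values are mean ± SD of 3 libraries; Hmgcs1 and Srebf2 in SRF-KO cells, Insig2 and Ebp in wild-type cells with LPS, and Ebp and Srebf1 in untreated cells lay within 1 SD of each other. Scd1 was the lowest of the 33 in each group. Within a group the coefficient of variation between libraries had a median of 4.17% over the 33 genes in SRF-KO cells with LPS, 8.11% in wild-type cells with LPS and 5.57% in untreated cells.

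**Figure D5:**
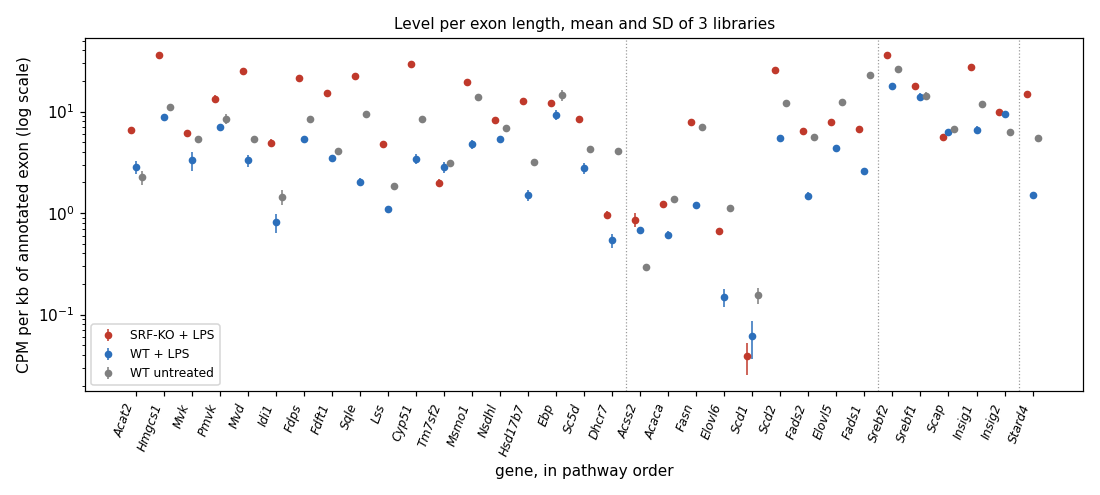
Mean CPM per kilobase of annotated exon of the 33 genes on a log axis, with error bars of 1 SD over 3 libraries, for SRF-KO cells with LPS (red), wild-type cells with LPS (blue) and untreated wild-type cells (grey). Red points stand highest for most sterol genes, and grey points highest for Dhcr7, Elovl5 and Fads1.

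Genes of the neighbouring steps were taken from lists made with earlier results of these data known. Their calls, and those of the marker lists below, have to be read against the shares of all genes given above. Of 10 further sterol genes, 7 could be tested: 1 rose and 4 fell with LPS in wild-type cells (median log2 fold change -0.15), and 6 were higher and 1 lower in SRF-KO than in wild-type cells with LPS (median 1.58). The gene on its own in both cases was Ggps1, picked out after its values were seen, which makes geranylgeranyl diphosphate and gave -0.40 between the LPS groups and 0.49 with LPS in wild-type cells, or -0.04 and -0.06 with library totals. That scaling gave 6 higher and 0 lower between the LPS groups and 0 higher and 6 lower with LPS in wild-type cells. Of 10 genes that use isoprenoid units for other products, LPS raised 3 and lowered 2, and SRF-KO against wild-type cells with LPS gave 4 higher and 4 lower (median 0.11); with library totals these were 0 raised and 8 lowered, and 6 higher and 2 lower. The largest log2 fold change among the higher ones, 1.01, was that of Nus1, a subunit of the enzyme that makes dolichol, at 201, 212 and 195 CPM in SRF-KO cells with LPS, 103, 104 and 96.3 in wild-type cells with LPS and 91.2, 83.0 and 84.7 in untreated cells.

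Of 14 further genes of fatty acid supply and lipid assembly, 10 could be tested, with 3 raised and 4 lowered by LPS in wild-type cells (median -0.04) and 7 higher and 2 lower in SRF-KO than in wild-type cells with LPS (median 0.38), or 1 and 6, and 7 and 1, with library totals. Me1, malic enzyme, which supplies NADPH, was at 55.6, 54.7 and 55.1 CPM in SRF-KO cells with LPS, 16.9, 17.6 and 17.6 in wild-type cells with LPS and 9.16, 7.66 and 8.65 in untreated cells. It was thus raised by LPS and higher still in SRF-KO cells (log2 fold change 1.66, edgeR adjusted p = 1.26e-23). Mid1ip1, which activates acetyl-CoA carboxylase, had log2 fold changes of 0.94 between the LPS groups and -1.83 for LPS in wild-type cells. Lpin1, a phosphatidate phosphatase, had log2 fold changes of 3.18 and -3.63 in these comparisons, from 18 reads in all in wild-type cells with LPS. Lpin1 passed the filter on low counts only through its SRF-KO and untreated libraries, so both calls were favoured by that filter.

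The 11 genes of SREBP cleavage, ubiquitin ligation and turnover did not share a direction. LPS in wild-type cells raised 6 and lowered 3 (median 0.21), and SRF-KO against wild-type cells with LPS gave 5 higher and 5 lower (median -0.09); with library totals these were 2 and 7, and 8 and 2. The protease gene Mbtps1, which makes the first cut in SREBP precursors, was 1.83-fold higher in SRF-KO than in wild-type cells with LPS (edgeR adjusted p = 3.55e-19). Rnf145, a ubiquitin ligase of the endoplasmic reticulum, was at 57.4, 62.0 and 60.7 CPM in SRF-KO cells with LPS, 106, 110.3 and 101 in wild-type cells with LPS and 32.2, 33.7 and 36.5 in untreated cells.

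Among 14 genes of oxysterol synthesis, LXR signalling and sterol traffic, 12 could be tested. LPS in wild-type cells raised 6 and lowered 5, and in SRF-KO against wild-type cells with LPS 4 were higher and 8 lower (median -1.46), or 5 and 7, and 4 and 7, with library totals. The 4 higher ones, named after their values were seen, were the efflux pump gene Abca1, Osbp, Npc1 and the lysosomal lipase gene Lipa, with log2 fold changes of 0.19 to 0.47. Ch25h (ENSMUSG00000050370, chr19:34473778-34475164, minus strand) was at 34.6, 33.2 and 34.3 CPM in SRF-KO cells with LPS, 207, 209.9 and 237 in wild-type cells with LPS and 39.6, 47.1 and 44.3 in untreated cells. Only the wild-type cells with LPS were high, and the SRF-KO libraries were below the untreated ones. LPS raised Ch25h 5.00-fold in wild-type cells (edgeR adjusted p = 2.86e-31), and SRF-KO cells were 6.41-fold below wild-type cells with LPS (edgeR adjusted p = 8.82e-33). Nr1h3, the gene of the oxysterol receptor LXR alpha, was at 22.1, 19.9 and 19.0 CPM in SRF-KO cells with LPS, 199, 174 and 195 in wild-type cells with LPS and 43.6, 46.0 and 47.4 in untreated cells. The largest difference in this list between the LPS groups was that of Apoe (log2 fold change -5.24, edgeR adjusted p = 4.22e-43). Also lower were Cyp27a1 (-3.61), Mylip (-1.82), Abcg1 (-1.65), Npc2 (-1.26) and Nr1h2 (-0.38, or -0.02 with library totals). Whether these levels had a part in those of the sterol and fatty acid genes was not tested.

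Proliferation markers also moved with the groups. Summed over 14 genes, they were at 1494 to 1544 CPM in SRF-KO cells with LPS, 279.9 to 291.2 in wild-type cells with LPS and 1441 to 1507 in untreated cells. All 14 fell with LPS in wild-type cells, and 13 were higher and 1, Pcna, named after its value was seen, was lower in SRF-KO than in wild-type cells with LPS (log2 fold change -0.15, or 0.21 with library totals). Of 8 dendritic cell markers 3 could be tested. The list summed to 181.9 to 188.3 CPM in SRF-KO cells with LPS, 39.8 to 46.6 in wild-type cells with LPS and 39.3 to 43.8 in untreated cells, and Cd209a had a count of 0 in every library. Itgax (log2 fold change 2.16) and Ccr7 (2.03) were higher in SRF-KO than in wild-type cells with LPS, and Batf3 (-0.26) did not pass. Of 9 neutrophil markers 4 could be tested, with sums of 34.5 to 39.2 CPM in SRF-KO cells with LPS, 245.2 to 259.0 in wild-type cells with LPS and 50.3 to 52.6 in untreated cells, and Elane had a count of 0 in every library. The most abundant of them was the receptor gene Csf3r, at 19.9, 15.3 and 18.8 CPM in SRF-KO cells with LPS, 252, 238 and 247 in wild-type cells with LPS and 47.8, 50.1 and 49.3 in untreated cells. It was the single neutrophil marker that was lower in SRF-KO than in wild-type cells with LPS (log2 fold change -3.78), while S100a8 (1.66) and Camp (1.23) were higher in SRF-KO cells and S100a9 (-0.40) did not pass.

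Macrophage markers did not all move one way between the groups with LPS. Of the 10, 3 were higher and 7 lower in SRF-KO than in wild-type cells with LPS (median log2 fold change -0.88; 3 and 7 with library totals). Fcgr1, an Fc receptor gene, was at 87.4, 86.8 and 78.4 CPM in SRF-KO cells with LPS, 1833, 1873 and 1851 in wild-type cells with LPS and 672, 695 and 686 in untreated cells, a log2 fold change of -4.46 between the LPS groups (edgeR adjusted p = 2.09e-42). Among the others that were lower were Mertk (-2.33), Cd68 (-1.35), Spi1 (-1.32), Adgre1 (-1.12) and Itgam (-0.45), and Cd14 (0.75), Lyz2 (0.46) and Csf1r (0.36) were higher. Of the 12 adipocyte, stromal and endothelial markers 4 could be tested: Pdgfrb was higher in SRF-KO than in wild-type cells with LPS (0.90), and Fabp4 (-0.74, or -0.39 and adjusted p = 0.0643 with library totals), Pecam1 (-1.78) and Cdh5 (-2.23) were lower. LPS in wild-type cells raised Pdgfrb (6.72), Pecam1 (3.46) and Cdh5 (1.74) and lowered Fabp4 (-1.15). Pdgfrb was the most abundant of the 4 with LPS, at 28.2, 25.9 and 28.0 CPM in SRF-KO cells, 17.4, 13.3 and 13.6 in wild-type cells with LPS and 0.0965, 0.191 and 0.107 in untreated cells. Pdgfrb passed the filter on low counts only through its LPS libraries, so its call as raised by LPS was favoured by that filter. The part of these marker levels in the sterol and fatty acid results was not tested.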

How the data were processed

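Poly-A or total RNA selection is not given in the sources used here; per the labels' protocols, libraries followed a stranded TruSeq RNA protocol. The authors deposited 1 table of raw read counts per gene for each of 9 libraries. Per the submitters' processing notes, bcl2fastq 2.19, Trimmomatic, STAR 2.5.4b, featureCounts and edgeR were used with GRCm38; their order, settings and strand option are not stated there. Symbols and coordinates were matched to the GENCODE M21 annotation (22291 of 22524 identifiers).

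All 9 libraries were fitted together in edgeR 4.0.16 (R 4.3.3) with TMM scaling, edgeR's default filter on low counts (11560 genes tested), a robust quasi-likelihood fit and Benjamini-Hochberg adjustment over all genes tested, with a threshold of 0.05; the procedure was tested on simulated data. The common biological coefficient of variation was 3.46%, so small differences could pass. Means carry the SD of 3 libraries.

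Alternatives were DESeq2 1.42.0, other scalings and filters, fits of only the 2 groups compared, a replicate block, no genes of chromosomes X and Y, and leaving out each library. Described in every library were, per comparison and role, the 3 genes with the smallest p in each direction that passed, all regulators and Stard4. Members and lists were chosen with earlier results of these data known. Xist, protein sequences and 7 promoters were not analysed here.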

Additional observations from a re-analysis of the deposited data

How the results depend on the processing

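Of the values for single genes under the alternatives, 1633 of 1673 kept their direction and their side of the threshold, 29 no longer passed, 6 newly passed and 5 changed sign. The total includes fits that left out a library of the group not compared. Fold changes could hardly move there, so the share kept overstates how stable the values are. With library totals, which move the median of all genes, 1 gene was higher with LPS in wild-type cells and 0 were lower in SRF-KO than in wild-type cells with LPS. The medians for the sterol, fatty acid and regulator genes were then 2.35, 1.74 and 0.70 for SRF-KO against wild-type cells with LPS, 1.11, -0.35 and 0.26 for SRF-KO with LPS against untreated cells, and -1.22, -2.06 and -0.65 for LPS in wild-type cells. Changes of sign were Acat2 with LPS in wild-type cells (-0.20), Scap in SRF-KO against wild-type cells with LPS (0.19) and Fasn in SRF-KO with LPS against untreated cells (-0.031), all with library totals, and Srebf1 with LPS in wild-type cells without wild-type LPS replicate 2 (0.028) or untreated replicate 3 (0.0089), in a range over the left-out libraries of -0.104 to 0.028. A stricter filter removed Scd1, and the fatty acid medians became 1.76 for SRF-KO against wild-type cells with LPS, 0.0013 for SRF-KO with LPS against untreated cells, a change of sign, and -1.72 for LPS in wild-type cells. Fitting only the 2 groups compared also removed Scd1 between the LPS groups, with a fatty acid median of 1.76. Without chromosomes X and Y, which removes Nsdhl and Ebp, the sterol medians were 2.04 between the LPS groups and 1.36 for SRF-KO with LPS against untreated cells.

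Leaving out each library in turn gave 1 to 2 genes lower in SRF-KO than in wild-type cells with LPS, with the call of Scap lost without SRF-KO replicate 2 or wild-type LPS replicate 1. In that comparison the sterol median ranged from 1.96 to 2.04 and the fatty acid median from 1.35 to 1.42. The regulator median for SRF-KO with LPS against untreated cells ranged from 0.41 to 0.48. With LPS in wild-type cells, 2 to 3 genes were higher and 26 to 27 lower; Pmvk did not pass without untreated replicate 1, and Fdft1 did not pass without wild-type LPS replicate 3 or untreated replicate 1.

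Deviations of same-numbered libraries had correlations of -0.0746 to 0.0971, and those of differently numbered ones -0.11 to 0.111. Between the LPS groups the same-numbered values, 0.0654, 0.0971 and 0.018, were the highest. Whether the numbers pair the samples is not given in the sources used here, and correlations this small cannot decide it. With a replicate block, Acaca no longer passed in SRF-KO with LPS against untreated cells (log2 fold change -0.15, adjusted p = 0.0527), which left 8 genes lower, and no other call among the 33 changed. Depth limits Scd1, with 13 reads in all in each LPS group, and Elovl6, with 40 in wild-type cells with LPS.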

Other observations

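Isoprenoid units also leave sterol synthesis for dolichol, ubiquinone and protein prenylation. The catalytic dolichol gene Dhdds was at 76.1, 71.2 and 78.1 CPM in SRF-KO cells with LPS, 39.6, 37.1 and 40.6 in wild-type cells with LPS and 37.9, 42.7 and 39.97 in untreated cells, with the wild-type groups overlapping. Its log2 fold change was 0.94 between the LPS groups (edgeR adjusted p = 9.79e-18). Coq2, a ubiquinone synthesis gene named after its values were seen, was at 13.7, 15.4 and 14.6 CPM in SRF-KO cells with LPS, 27.5, 26.2 and 25.1 in wild-type cells with LPS and 32.2, 30.3 and 33.4 in untreated cells, a log2 fold change of -0.84 between the LPS groups (edgeR adjusted p = 8.49e-13). The dolichol pair Nus1 and Dhdds was thus higher and Coq2 lower in SRF-KO cells; a difference between the branches was not tested.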
